A study of Mus musculus with 5 samples.

Results

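The hepatocytes of mice fasted for 8 h were compared with those of mice fasted for 4 h. Each time point is 1 library of isolated total hepatocytes from male wild-type C57BL/6J mice, made with 10x Genomics 3' v3 chemistry, in which each captured mRNA carries a unique molecular identifier (UMI) and is counted once. All groups of the series ate normal chow (lab diet #5053) and were trained for 3 days on a schedule of 16 h without food overnight and 8 h with food by day. On the test day they ate for 4 h with 20% sucrose in the drinking water, and the fed group was taken at 13:00. Food and sucrose were then withdrawn, and the 4 h and 8 h livers were taken at 17:00 and 21:00. Fasting time and clock hour therefore cannot be told apart in this comparison. How many animals entered a library and their age are not given in the sources used here.

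A barcode was taken as a hepatocyte when it held at least 1000 UMIs and 500 genes, 2 to 30% UMIs of mitochondrially encoded genes, and under 2% haemoglobin UMIs. This kept 4567 of 10000 barcodes at 4 h and 2716 of 10000 at 8 h, 7283 of the 28810 barcodes of the series that met these limits. For each library the UMIs of all hepatocytes were added up and scaled to 1000000 UMIs of nuclear-encoded genes (CPM). With 1 library a side there is no replicate check. Differences are given as sizes with 95% intervals that cover counting error only, and no test was made. A gene was called at a difference of 2-fold or more, with at least 50 CPM in either library, and "rose" and "fell" are used only of called genes.

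After a meal the liver stores glucose as glycogen and turns the excess into fatty acids. Over the first hours of a fast it releases glucose from glycogen, then makes glucose from lactate, glycerol and amino acids, and burns fatty acids to ketone bodies. Falling insulin and rising glucagon and glucocorticoids drive this switch, in large part through transcription of the enzymes, and many of the same genes also follow the circadian clock. Hepatocytes next to the portal vein and those next to the central vein of a liver lobule hold different sets of these enzymes.

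The hepatocyte label was checked against marker genes. Of 21 hepatocyte identity genes, 19 had 50 CPM or more, and 2 hepatocytes at 8 h and 0 at 4 h had no UMI of albumin (Alb). Markers of other liver cells were low, apart from Clu of the cholangiocyte list. The 15 endothelial markers summed to 17.9 CPM at 4 h and 17.3 CPM at 8 h, with none at 0. The 15 Kupffer and myeloid markers summed to 5.36 and 1.30 CPM, with Clec4f, Vsig4 and Csf1r among the 9 at 0 at 8 h. The 13 stellate markers summed to 1.67 and 18.5 CPM, led at 8 h by Dcn at 6.48 CPM, with Col1a1 and Acta2 at 0 in both libraries. The 9 cholangiocyte markers summed to 1150 and 1208 CPM, of which Clu, clusterin, gave 1102 and 1173 CPM. Without Clu they summed to 48.4 and 35.8 CPM, most of it Sox9, while Krt19 and Krt7 stayed under 1 CPM. The 12 lymphocyte markers summed to 0.044 and 0.030 CPM, and the 8 neutrophil markers to 0.132 and 0.266 CPM. Of the 8 erythroid markers, Alas2 alone exceeded 1 CPM, at 30.9 and 67.0 CPM. The libraries shared 29 barcodes, 5 of them among hepatocytes.

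The libraries differed in cell quality measures in ways that run alongside the comparison. The median hepatocyte had 12097 UMIs and 2696 genes at 4 h, and 15005 UMIs and 3282.5 genes at 8 h. Hepatocytes under 3000 UMIs made up 28.0% at 4 h and 10.5% at 8 h. Mitochondrially encoded genes gave 19.4% of hepatocyte UMIs at 4 h and 9.78% at 8 h. All 13 of these genes had a lower share of UMIs at 8 h, with log2 ratios from -0.57 for mt-Nd4l to -2.32 for mt-Nd6. The most abundant at 4 h, mt-Atp6, took 3.75% of UMIs at 4 h and 1.63% at 8 h. Barcodes left out for under 2% mitochondrial UMIs numbered 5345 at 4 h and 576 at 8 h, and another 6441 barcodes at 8 h, but 0 at 4 h, were under 1000 UMIs. Whether the 10000 barcodes of each library were chosen by the same rule is not given in the sources used here, so the kept shares of barcodes are not compared. At the lower limit, 557 barcodes at 4 h and 53 at 8 h had 1 to 2% mitochondrial UMIs, and 192 and 49 had 2 to 3%. The part of these gaps in the gene differences was not tested as a whole. A narrower limit of 2 to 15% mitochondrial UMIs, used below as a check, also changes depth. Divided by zone as described further on, its portal and central cells had medians of 3193 and 1654 UMIs at 4 h. At 8 h they had 16426 and 11766 UMIs.

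Of 2797 genes at the minimum, 93 (3.32%) differed at least 2-fold between 8 h and 4 h. Of these, 31 (1.11%) were higher at 8 h and 62 (2.22%) were lower. The median log2 ratio of 8 h to 4 h over all 2797 genes was -0.04, and 2397 genes (85.7%) lay within 1.5-fold. Of the 2797 genes, 1282 had a ratio above 0 and 1515 a ratio below 0. These counts and the called shares of 1.11% and 2.22% are the background for the list counts below. A 4-fold difference was reached by 1 gene that rose and 9 that fell. The 31 genes took 0.908% of nuclear-encoded UMIs at 4 h and 2.21% at 8 h, and the 62 genes took 2.18% and 0.748%. With mitochondrial UMIs kept in the denominator the median moved to 0.13, and 54 genes were higher and 32 lower. The share of called genes that were higher was thus 62.8% on that scale and 33.3% on the scale used here. The balance of the directions therefore depends on the scale. The change of scale shifts every log2 ratio by the same amount, too small to turn the sign of a called gene.

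**Figure D1:**
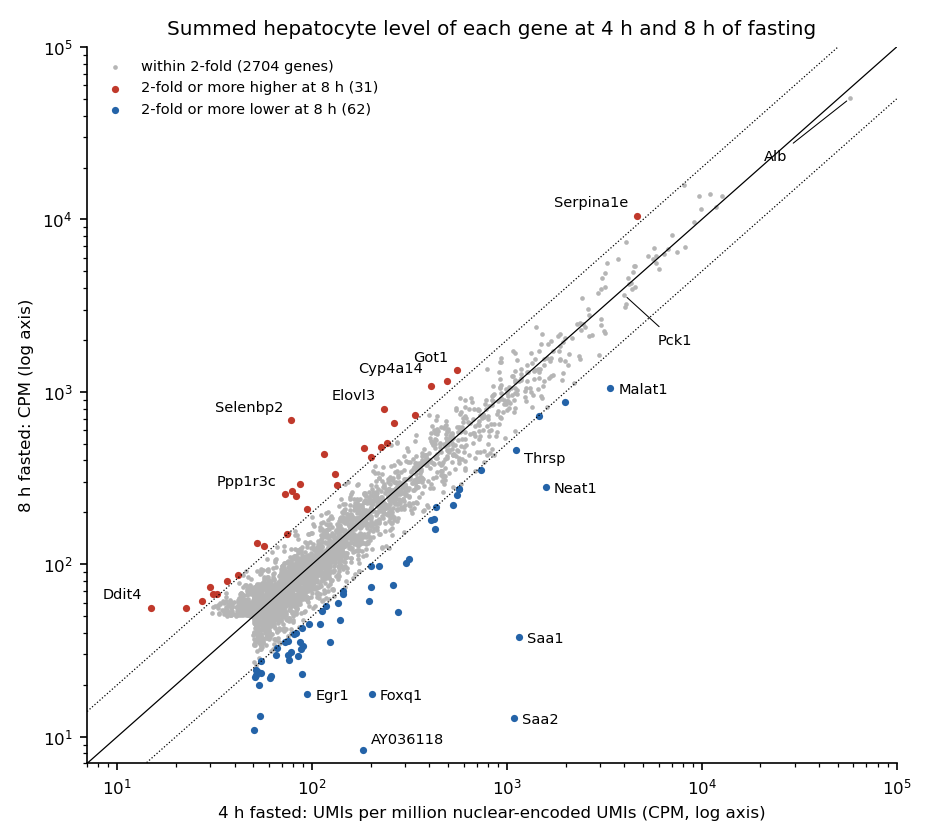
Level of each of the 2797 genes at 4 h (x axis) and 8 h (y axis) of fasting, in CPM summed over hepatocytes, both on log axes, with 1 library per axis. The solid line marks equal levels and the dotted lines a 2-fold difference: 31 genes lie above the upper line (red), 62 below the lower line (blue), and Saa2, Saa1, AY036118 and Foxq1 lie farthest below it.

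Among the genes of glucose production, the enzyme of the last step rose, with an aminotransferase and a mitochondrial carrier, while the other core enzymes were not called. G6pc, the catalytic subunit of glucose-6-phosphatase that releases free glucose, had 339 CPM at 4 h and 729 CPM at 8 h, a log2 ratio of 1.11 (95% interval 1.08 to 1.13). Pck1, the cytosolic enzyme that makes phosphoenolpyruvate, had 3983 CPM at 4 h and 3662 CPM at 8 h (-0.12). Fbp1, fructose-1,6-bisphosphatase, had 711 and 652 CPM (-0.13), and Pcx, the pyruvate carboxylase of mitochondria, had 231 and 280 CPM (0.28). Pck1 was already at that level at 4 h, against 899 CPM in the fed library, whereas G6pc had 398 CPM in the fed library and was not above it at 4 h. The sign of Pck1 turned when cells were limited to 2 to 15% mitochondrial UMIs (0.23), which kept 1083 hepatocytes at 4 h and 2634 at 8 h, with all UMIs in the denominator (0.04) and as a mean of per-cell CPM (0.15). That of Fbp1 turned with all UMIs in the denominator and with free RNA subtracted, to 0.04 in both. G6pc stayed between 1.06 and 1.75 in every setting tried.

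Got1, the cytosolic aspartate aminotransferase that returns carbon from mitochondria for glucose synthesis, rose from 555 to 1331 CPM (1.26). Slc25a47, a hepatocyte carrier of the inner mitochondrial membrane, rose from 494 to 1154 CPM (1.22). Got2, the mitochondrial partner of Got1, had 401 and 538 CPM (0.43), and Slc37a4, which moves glucose-6-phosphate to the site of G6pc, had 188 and 248 CPM (0.40). Of 18 genes in the list, 16 were at the minimum, 3 rose, 0 fell, and the median was 0.25 beside -0.04 over all genes. Among the lowest members were Fbp1 and Ldhd, a lactate dehydrogenase, the latter with 141 and 129 CPM (-0.12, and 0.12 with cells of 2 to 15% mitochondrial UMIs). Pck2 and Slc16a1 were under the minimum. Of 10 regulators of the pathway at the minimum, Atf5, a transcription factor of the cAMP-response family, rose from 201 to 419 CPM (1.06). The glucagon receptor Gcgr had 113 and 175 CPM (0.63), while the glucocorticoid receptor Nr3c1 had 151 and 89.8 CPM (-0.75) and the coactivator Ppargc1a had 56.0 and 35.4 CPM (-0.66).

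The sequence before the start of G6pc is shown because it is the core gene of the pathway that rose and its promoter window holds a D-box, the site read by the clock output factors of the DBP family and by NFIL3. The promoter windows used are from RefSeq on GRCm38.p6 and run from 250 bases before to 50 bases after each annotated start. The printed part is the 250 bases before the start, chr11:101367466-101367715 on the plus strand, 5' to 3', with the D-box in capitals. Its first base lies 162 bases before the start site, and it reads the same on both strands.
G6pc: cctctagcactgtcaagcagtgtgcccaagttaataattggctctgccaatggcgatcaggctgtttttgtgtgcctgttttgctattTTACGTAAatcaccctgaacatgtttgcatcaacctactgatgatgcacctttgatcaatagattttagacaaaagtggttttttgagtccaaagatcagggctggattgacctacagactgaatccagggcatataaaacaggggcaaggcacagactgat
The D-box was searched as TTANGTAA on both strands. It was in 3 of the 34 windows (8.82%) of the 25 matched genes that rose, those of G6pc, Slc25a25 and Slc45a3, in 1 of the 64 windows (1.56%) of genes that fell, in 2.32% of all 32851 windows and in 2.30% of those of all genes at the minimum. A match describes the letters only. The E-box CACGTG, the site read by CLOCK and BMAL1, was in 6 windows of genes that rose (17.6%), those of Cbs, Fkbp5, Igfbp2, Ppp1r3c, Sco2 and Trim25, beside 6.25% for genes that fell, 7.15% of all windows and 11% of the windows of all genes at the minimum. The cAMP response element TGACGTCA was in 2.94% and 3.12% of the windows of genes that rose and fell, beside 1.79% of all windows and 3.07% of those of all genes at the minimum.

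Most genes of amino acid breakdown had a higher level at 8 h, with few past 2-fold. Of 41 genes, 38 were at the minimum, and 31 of these had a ratio above 0, beside 1282 of 2797 over all genes. Of the 38 genes 2 rose and 1 fell, and the median was 0.27. Cbs, the cystathionine synthase that takes homocysteine towards cysteine, rose from 243 to 505 CPM (1.06). Sdsl, a relative of serine dehydratase, rose from 22.5 to 55.9 CPM (1.31), but had 0.77 with cells of 2 to 15% mitochondrial UMIs. Sds, the serine dehydratase that yields pyruvate, had 271 and 509 CPM (0.91). Gnmt, the glycine methyltransferase that uses up S-adenosylmethionine, had 1407 and 2390 CPM (0.76), but its sign turned with cells of 2 to 15% mitochondrial UMIs (-0.20), and it reached 1.42 with free RNA subtracted. Oat, ornithine aminotransferase, fell from 302 to 101 CPM (-1.58). Oat is also a landmark of central hepatocytes, whose landmarks are described further on.

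In the urea cycle, which disposes of the nitrogen, all 8 genes were at the minimum and none was called. Ass1, argininosuccinate synthase, was the highest, with 3250 CPM at 4 h and 5620 CPM at 8 h (0.79). Slc25a15, the ornithine carrier, had 308 and 472 CPM (0.61), and Cps1, the entry enzyme, had 4203 and 4543 CPM (0.11). Otc, ornithine transcarbamylase, was the lowest with 571 and 389 CPM (-0.55). The list's median was 0.31. Other mitochondrial carriers that are in no list were among the genes with the highest ratios: Slc25a22, a glutamate carrier, rose from 86.7 to 293 CPM (1.76), and Slc25a25, a carrier of ATP-Mg and phosphate, from 83.1 to 249 CPM (1.58).

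Fatty acid use showed 3 genes that rose among 26 at the minimum, none that fell, and a median of 0.18. Cyp4a14 and Cyp4a10, omega-hydroxylases of fatty acids under control of PPARalpha, rose from 408 to 1088 CPM (1.42) and from 227 to 480 CPM (1.08). Angptl4, a secreted inhibitor of lipoprotein lipase, rose from 130 to 333 CPM (1.36). Acads, the short-chain acyl-CoA dehydrogenase, had 118 and 198 CPM (0.75). The entry enzyme Cpt1a had 209 and 237 CPM (0.18), and Ppara itself 95.5 and 79.4 CPM (-0.27, and 0.14 with cells of 2 to 15% mitochondrial UMIs). The lowest members were Acot4, an acyl-CoA thioesterase, with 63.1 and 45.3 CPM (-0.48) and Bdh1, which makes the ketone body 3-hydroxybutyrate, with 70.9 and 55.1 CPM (-0.36). Fgf21, the fasting hormone of liver, was under the minimum in both libraries, with 0.417 and 2.99 CPM.

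On lipid droplets, Pnpla2, the adipose triglyceride lipase that starts the breakdown of stored fat, rose from 52.4 to 133 CPM (1.34). Plin5, the droplet coat protein that holds droplets to mitochondria, rose from 94.1 to 208 CPM (1.15). Lpin1, a phosphatidate phosphatase, had 937 and 1568 CPM (0.74), and Plin2, the main droplet coat of hepatocytes, had 147 and 224 CPM (0.61). Of 11 members at the minimum 9 had a ratio above 0, beside 1282 of 2797 over all genes. The lowest, the monoglyceride lipase Mgll, had 102 and 84.6 CPM (-0.27). The 9 members under the minimum included Plin4 with 2.50 and 14.0 CPM, Cidec with 0.835 and 1.42 CPM, and Cd36 with 19.1 and 3.81 CPM.

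Of the genes of fatty acid synthesis, 4 fell. Srebf1, which encodes the insulin-driven activator of lipogenic genes, fell from 88.4 to 22.9 CPM (-1.95, interval -2.06 to -1.83). Acly, the source of cytosolic acetyl-CoA, fell from 430 to 161 CPM (-1.42), Elovl6, the elongase of newly made fatty acids, from 61.4 to 22.6 CPM (-1.44), and Thrsp, a lipogenic cofactor, from 1108 to 458 CPM (-1.27). Acly and Elovl6 were at -0.99 and -0.91 with cells of 2 to 15% mitochondrial UMIs. Of 18 members at the minimum these 4 fell and 0 rose, with a median of -0.29. Acacb, the acetyl-CoA carboxylase of the mitochondrial surface, went the other way and stood just short of 2-fold, with 45.6 and 91.1 CPM. Fasn, fatty acid synthase, had 83.1 and 93.8 CPM (0.17), having been at 2021 CPM in the fed library, and Scd1, the stearoyl-CoA desaturase, had 5996 and 5168 CPM (-0.21). Gpam, which starts triglyceride synthesis and is in no list, fell from 201 to 74.1 CPM (-1.44) and was named after its value was seen.

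Among the elongases the difference went both ways. Elovl3, which makes very long chain saturated fatty acids, rose from 234 to 798 CPM (1.77), while Elovl6 fell. Elovl2, which extends polyunsaturated fatty acids, had 461 and 347 CPM (-0.41), and Elovl5, of the same pathway, 235 and 209 CPM (-0.17). The signs of both turned with cells of 2 to 15% mitochondrial UMIs, to 0.13 and 0.28. In the fed, 16 h and 24 h libraries Elovl3 was at 6.46, 61.4 and 15 CPM, so its 8 h level was the highest of the 5.

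Among genes of cholesterol synthesis and uptake, Insig1, the sterol sensor that holds SREBP proteins in the endoplasmic reticulum, fell from 420 to 182 CPM (-1.21). Sqle, squalene epoxidase, had 63.9 and 34.5 CPM (-0.89). Insig2, the insulin-repressed counterpart of Insig1, was the highest of the list, with 547 and 782 CPM (0.52), followed by Srebf2 with 40.6 and 56.7 CPM (0.48). Of 21 members at the minimum 16 were below 0, beside 1515 of 2797 over all genes. Of the 21 members 2 fell and 0 rose, and the median was -0.27. Insig1 was at -0.68 with cells of 2 to 15% mitochondrial UMIs. The sterol regulatory element, searched as TCACNCCAC, was in 1 of the 19 windows of the 14 matched genes of this list (5.26%), that of Hmgcs1, beside 1.24% of all windows. In bile acid synthesis none of 18 genes was called, with Cyp8b1, the sterol 12-hydroxylase, at 253 and 492 CPM (0.96) and Cyp7a1, the rate-limiting enzyme, at 128 and 71.4 CPM (-0.84, and 0.09 with cells of 2 to 15% mitochondrial UMIs).

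Of 7 glycogen genes at the minimum, Ppp1r3c, a subunit that brings protein phosphatase 1 to glycogen, rose from 72.3 to 255 CPM (1.82). The 3 lowest members were not called: Ugp2, which makes UDP-glucose, had 373 and 207 CPM (-0.85), the branching enzyme Gbe1 202 and 123 CPM (-0.72), and glycogen synthase Gys2 106 and 67.7 CPM (-0.65). Pygl, the phosphorylase that breaks glycogen down, had 203 and 227 CPM (0.16), and Pgm1, phosphoglucomutase, 171 and 178 CPM (0.06). The list's median was -0.29, and 0.14 with cells of 2 to 15% mitochondrial UMIs. Mpc2, a subunit of the mitochondrial pyruvate carrier, fell from 435 to 215 CPM (-1.02), close to the threshold, and missed it in 6 of 14 settings.

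**Figure D2:**
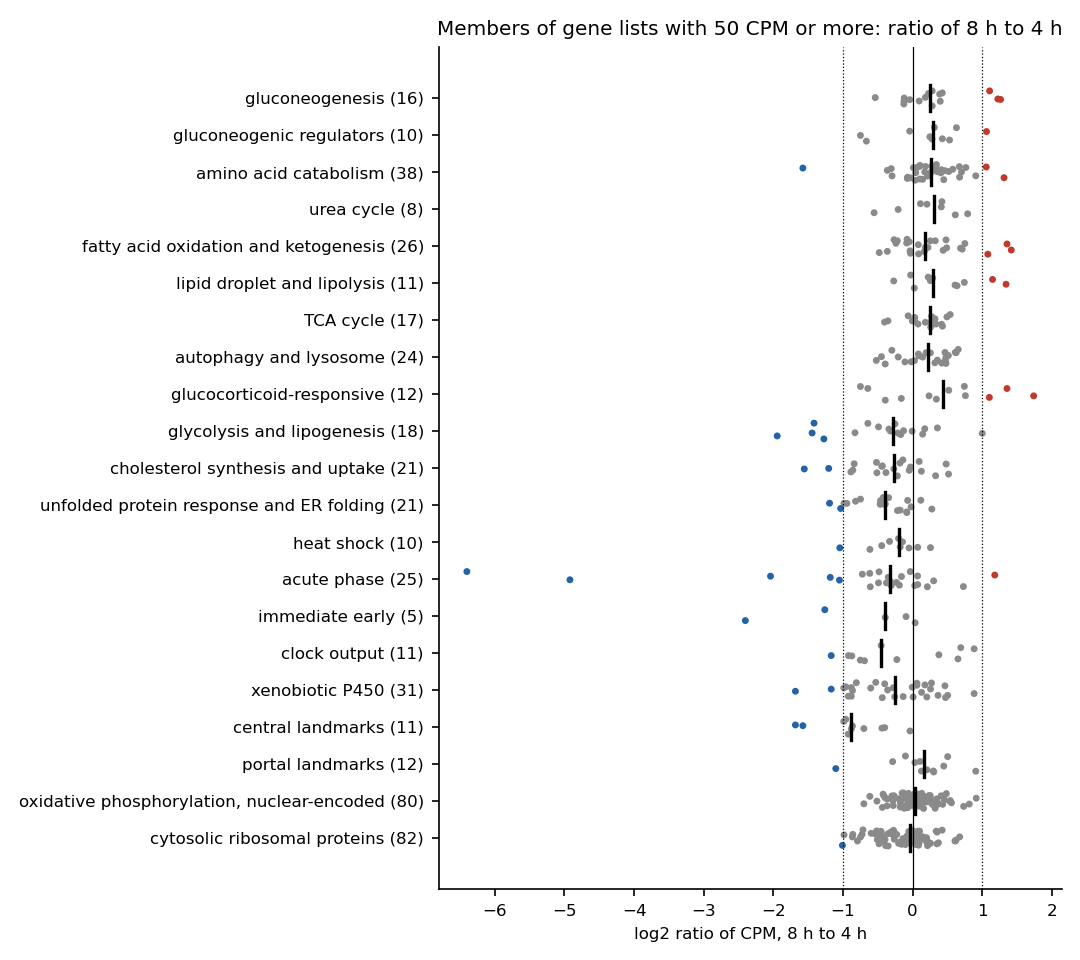
Log2 ratio of 8 h to 4 h (x axis) of each member with 50 CPM or more of 21 gene lists (rows, number of members in brackets), 1 library per time. Red and blue points are members past 2-fold (dotted lines), grey points lie within it, and black bars are list medians: the medians lie between -0.88 for the central landmarks and 0.43 for the glucocorticoid-responsive genes.

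Genes known to respond to glucocorticoids had the highest median of the lists in that plot, 0.43 over 12 members at the minimum, with 3 that rose and 0 that fell, 8 with a ratio above 0 and 4 below. Cdkn1a, the cell cycle inhibitor p21, rose from 79.2 to 264 CPM (1.74), and Fkbp5, a co-chaperone of the glucocorticoid receptor, rose from 134 to 288 CPM (1.10). Angptl4 is the other gene that rose. Tsc22d3, also called GILZ, had 204 and 346 CPM (0.76). The 4 members below 0 were the receptor Nr3c1, Zbtb16, a zinc finger repressor, with 61.5 and 39.4 CPM (-0.64), Dusp1 (-0.39) and Klf9 (-0.16). In the fed library Cdkn1a stood at 2.59 CPM and Fkbp5 at 22.1 CPM, so both had also been below their 4 h level there. The metallothioneins, which bind zinc and respond to the same hormones, were high in both libraries: Mt1 had 5308 and 6149 CPM (0.21) and Mt2 1839 and 1716 CPM (-0.10), against 111 and 27.1 CPM in the fed library. The difference between 4 h and 8 h changed sign in 3 settings for each, within -0.36 to 0.38 for Mt1 and -0.45 to 0.07 for Mt2. Among genes of insulin and growth factor signalling, Igfbp2, a binding protein of insulin-like growth factors, rose from 262 to 662 CPM (1.34), while Igfbp1 was equal at 276 and 276 CPM. None of the other 13 members at the minimum was called.

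Ddit4, which restrains mTORC1, rose from 14.8 to 56.1 CPM (1.92). The other members of the integrated stress response at the minimum, Atf4 and Eif4ebp1, had 78.8 and 92.8 CPM (0.24) and 75.5 and 85.6 CPM (0.18), the latter at -0.17 with cells of 2 to 15% mitochondrial UMIs. The related Eif4ebp3, a repressor of cap-dependent translation, rose from 184 to 475 CPM (1.37), and had 0.79 with cells of 2 to 15% mitochondrial UMIs.

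The clock hour differed by 4 h, and of the 16 core clock genes 4 were at the minimum, none of them called: Clock had 59.6 and 70.6 CPM (0.25) and Cry1, a repressor arm gene, 78.3 and 53.7 CPM (-0.55, and 0.06 with cells of 2 to 15% mitochondrial UMIs). Several core and output genes were under the minimum in both libraries, among them Per2 with 9.09 and 1.63 CPM, Dbp with 6.17 and 1.92 CPM and Wee1 with 12.1 and 1.09 CPM. In the fed library, taken at 13:00, Per2 was at 57.7 CPM and Dbp at 55.3 CPM. Of 11 output genes at the minimum, Alas1, the rate-limiting enzyme of haem synthesis, fell from 221 to 98.3 CPM (-1.17). Nampt, of NAD synthesis, had 165 and 87.3 CPM (-0.92), and Por, the electron donor of cytochrome P450 enzymes, had 400 and 738 CPM (0.88).

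Genes of the unfolded protein response, which raises folding capacity of the endoplasmic reticulum (ER), were lower at 8 h almost throughout. Of 21 members at the minimum 19 were below 0, beside 1515 of 2797 over all genes. Of the 21 members 2 fell and 0 rose, and the median was -0.40. Manf, a secreted ER stress protein, fell from 136 to 59.6 CPM (-1.19), and Pdia4, a disulfide isomerase, from 117 to 57.2 CPM (-1.03). Hspa5, the master chaperone BiP, had 689 and 348 CPM (-0.99, interval -1.02 to -0.96), just short of 2-fold. Hsp90b1, the chaperone GRP94, had 761 and 453 CPM (-0.75), Canx, calnexin, 483 and 361 CPM (-0.42) and Dnajc3, the co-chaperone p58IPK, 377 and 285 CPM (-0.40). P4hb, another disulfide isomerase, had 1096 and 1326 CPM (0.28) and was the highest, and Xbp1, a transcription factor of the response, had 167 and 164 CPM (-0.02), with a range over the settings of -0.05 to 0.32. Most of the distance from the fed library was already present at 4 h: Hspa5 had been at 3266 CPM and Manf at 626 CPM there. With cells of 2 to 15% mitochondrial UMIs the list's median was -0.04, the ratio of Hspa5 -0.47 and that of Pdia4 -0.49. With cells of 3000 UMIs or more the list's median was -0.43. The 2 to 15% limit also left shallower cells at 4 h than at 8 h, and what made the difference smaller was not tested.

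Promoter sequences of 4 of these genes are shown because they share a composite site, the ER stress response element, which is bound by NF-Y and ATF6. It was searched as CCAAT and CCACG separated by 9 bases, on both strands, and capitals mark its fixed letters on either strand. It was in 6 of 18 matched windows of the list (33.3%), those of Calr, Canx, Dnajc3, Hsp90b1, Hspa5 and Pdia6, and in 0.119% of all windows. None of its 7 matches in these windows overlapped an E-box. It was in 0 of the windows matched to called genes, which cover 25 of the 31 that rose and 47 of the 62 that fell. Of the 6 genes with a match Calr (-0.09) and Pdia6 (-0.07) were near equal. The stretches are the 250 bases before the RefSeq start on GRCm38.p6: chr2:34771840-34772089 on the plus strand, chr10:86705445-86705694 on the minus strand, chr14:118937682-118937931 on the plus strand and chr11:50325674-50325923 on the minus strand. The matches begin 65 bases before the start in Hspa5, 105 in Dnajc3 and 145 in Canx, and 212 and 107 in Hsp90b1.
Hspa5: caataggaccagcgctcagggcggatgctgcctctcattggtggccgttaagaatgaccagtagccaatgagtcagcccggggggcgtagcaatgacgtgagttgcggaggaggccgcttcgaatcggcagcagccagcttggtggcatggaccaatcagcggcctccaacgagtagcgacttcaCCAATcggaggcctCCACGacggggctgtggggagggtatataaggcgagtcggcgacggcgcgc
Hsp90b1: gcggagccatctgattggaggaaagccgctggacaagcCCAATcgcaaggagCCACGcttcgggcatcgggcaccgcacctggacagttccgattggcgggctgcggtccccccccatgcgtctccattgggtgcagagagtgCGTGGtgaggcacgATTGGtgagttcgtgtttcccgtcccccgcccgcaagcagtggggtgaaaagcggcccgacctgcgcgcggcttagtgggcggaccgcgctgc
Dnajc3: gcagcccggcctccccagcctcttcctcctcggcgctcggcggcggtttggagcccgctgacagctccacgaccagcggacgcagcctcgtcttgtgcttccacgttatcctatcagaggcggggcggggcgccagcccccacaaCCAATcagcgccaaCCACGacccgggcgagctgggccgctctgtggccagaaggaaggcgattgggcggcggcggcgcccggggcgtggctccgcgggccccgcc
Canx: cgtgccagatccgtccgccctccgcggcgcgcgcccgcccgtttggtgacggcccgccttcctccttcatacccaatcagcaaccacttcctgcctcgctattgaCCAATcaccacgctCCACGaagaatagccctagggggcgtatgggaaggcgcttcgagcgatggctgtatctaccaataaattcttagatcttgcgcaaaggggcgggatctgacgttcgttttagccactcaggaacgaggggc

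Of 10 heat shock genes at the minimum, with a median of -0.19 (-0.44 with cells of 2 to 15% mitochondrial UMIs), Hsp90aa1, the inducible HSP90, fell from 201 to 97.4 CPM (-1.05) and lost its call in 3 settings, with -0.88 for all UMIs in the denominator. Hspe1, a mitochondrial co-chaperonin, had 463 and 302 CPM (-0.61), and Hspa8, the constitutive HSC70, had 610 and 729 CPM (0.26). Rbm3, an RNA-binding protein induced by cold, fell from 75 to 36.1 CPM (-1.06, and -0.89 with all UMIs in the denominator), and its relative Cirbp was under the minimum.

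The largest differences were in the acute phase genes, secreted by the liver in inflammation. Saa2 fell from 1085 to 12.8 CPM (-6.40, interval -6.54 to -6.27) and Saa1 from 1148 to 37.9 CPM (-4.92, interval -5.00 to -4.84), both serum amyloid A proteins of near-identical sequence, so that reads may have been split between them by the authors' counting. The constitutive Saa4 was equal at 432 and 421 CPM (-0.03). Orm2, an orosomucoid, fell from 54.0 to 13.1 CPM (-2.04), Apcs, serum amyloid P, from 51.5 to 22.7 CPM (-1.18), and Steap4, a metalloreductase, from 88.9 to 42.9 CPM (-1.05). The call of Steap4 was lost in 4 settings, with -0.32 in cells of 2 to 15% mitochondrial UMIs. Of 25 members at the minimum 5 fell and 1 rose, Serpina1e, an alpha-1-antitrypsin gene, from 4644 to 10519 CPM (1.18), with a median of -0.32. Reads of Serpina1e, Orm2 and their near-identical relatives may likewise have been split. Lbp, which binds lipopolysaccharide, had 84.6 and 140 CPM (0.73), and hepcidin (Hamp) 495 and 611 CPM (0.30), a sign that turned in 3 settings, to -0.39 with cells of 2 to 15% mitochondrial UMIs. In the other libraries Saa1 was at 382 CPM fed, 4880 CPM at 16 h and 21.1 CPM at 24 h, so with 1 library per time its level went up and down with no steady direction.

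Saa RNA was also present at 4 h in barcodes outside the hepatocyte limits. Barcodes under 2% mitochondrial UMIs, which the rule left out, held 578 CPM of Saa1 and 912 CPM of Saa2 at 4 h, and 28.1 and 14.4 CPM at 8 h. After subtraction of an assumed 10% of free RNA, with the profile of each library's barcodes under 1% mitochondrial UMIs, the ratios of Saa1 and Saa2 were -4.95 and -6.54. In the portal, middle and central parts of the cells described further on, the ratios were -7.38, -6.23 and -5.28 for Saa2 and -5.15, -4.79 and -4.39 for Saa1.

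Immediate early genes, which answer growth factors and stress within minutes, were led by Egr1, a zinc finger transcription factor, which fell from 94.1 to 17.8 CPM (-2.40). Zfp36l1, which marks mRNAs for decay, fell from 528 to 220 CPM (-1.26), with -0.50 in cells of 2 to 15% mitochondrial UMIs. Of 24 members only 5 were at the minimum, and Jund had 125 and 129 CPM (0.04) and Dusp1 101 and 76.7 CPM (-0.39, and 0.10 with cells of 2 to 15% mitochondrial UMIs). Fos was under the minimum at 16.2 and 0.680 CPM. The list's median was -0.39, and 0.07 in cells of 2 to 15% mitochondrial UMIs.

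Long noncoding RNAs were among the genes that fell, named here for their size. Neat1, the scaffold of paraspeckles, fell from 1577 to 281 CPM (-2.49) and Malat1, which is kept in nuclear speckles, from 3388 to 1056 CPM (-1.68). Mir22hg, the host of a microRNA, fell from 124 to 35.2 CPM (-1.81). AY036118, annotated as a lincRNA, fell from 182 to 8.37 CPM. In the barcodes under 2% mitochondrial UMIs it stood at 3396 CPM at 4 h and 505 CPM at 8 h. Which RNA its reads came from was not tested. Its ratio was -4.44, with -7.07 in cells of 2 to 15% mitochondrial UMIs and -2.27 in cells of 5000 UMIs or more, the latter a setting added after the data were seen. In those left-out barcodes Malat1 had 922 CPM at 4 h and 2024 CPM at 8 h, and Neat1 had 113 and 419 CPM, the opposite order from hepatocytes. As a mean of the per-cell CPM the ratios were -1.85 for Neat1 and -1.22 for Malat1. The lower mitochondrial share and the lower levels of Neat1 and Malat1 at 8 h thus occur in the same library, and their part in the other differences was not tested.

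Foxq1, a forkhead transcription factor, fell from 202 to 17.7 CPM (-3.52), Foxa2, a pioneer factor of hepatocytes, from 88.0 to 32.3 CPM (-1.44), and the oestrogen receptor Esr1 from 50.8 to 22.2 CPM (-1.19). Of 14 nuclear receptors at the minimum Esr1 was the only called gene, and that call was lost with cells of 2 to 15% mitochondrial UMIs (-0.72) and as a mean of per-cell CPM. Nr1h4, the bile acid receptor FXR, was the highest with 71.4 and 102 CPM (0.52). Hnf4a, the factor that maintains hepatocyte identity, had a ratio of 0.43 and Cebpa 0.28. Phlda1 fell from 274 to 52.6 CPM (-2.38) and Arrdc3, an arrestin-like adaptor of membrane receptors, from 50.2 to 10.9 CPM (-2.20). Fgl1, a liver-secreted fibrinogen-like protein, fell from 259 to 75.9 CPM (-1.77).

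The gene with the highest ratio was Selenbp2, a selenium-binding protein, which rose from 78.2 to 685 CPM (3.13, interval 3.08 to 3.18). Its close homologue Selenbp1 had 169 and 222 CPM (0.40). Selenbp2 stood at 163 CPM fed, 45.2 CPM at 16 h and 10.7 CPM at 24 h, so that the 8 h library was far above the other 4. Gm43305, a processed transcript on chromosome 14, rose from 115 to 435 CPM (1.92), and Trim25, a ubiquitin ligase, from 29.8 to 74.3 CPM (1.32). Alas2, the haem synthesis isoform best known from red cells, rose from 30.9 to 67.0 CPM (1.12) while the other 7 erythroid markers stayed under 1 CPM.

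Other called genes outside the lists were named after their values were seen. Slc27a2, a very long chain acyl-CoA synthetase, fell from 567 to 275 CPM (-1.04), and Rnase4, a secreted ribonuclease, from 568 to 272 CPM (-1.06). Paqr9, a membrane receptor of the progestin and adipoQ family, fell from 314 to 108 CPM (-1.54), and Abcc3, an exporter of conjugated organic anions, from 110 to 45 CPM (-1.29). The snoRNA host genes Gas5 and Snhg8 fell from 409 to 181 CPM (-1.17) and from 112 to 53.7 CPM (-1.07). Ptma, prothymosin alpha, fell from 735 to 354 CPM (-1.05). Among genes that rose, Serpina12, the secreted serpin vaspin, went from 74.3 to 150 CPM (1.01), and Rgs16, a regulator of G protein signalling, from 27.1 to 60.8 CPM (1.17). Sco2, a copper chaperone of cytochrome c oxidase, rose from 56.7 to 128 CPM (1.18), and Slc45a3, a sugar transporter, from 41.6 to 86.3 CPM (1.05). Of these, Slc27a2 (-0.58), Rnase4 (-0.64), Ptma (-0.85), Abcc3 (-0.96) and Serpina12 (0.76) were under 2-fold with cells of 2 to 15% mitochondrial UMIs, and Gas5 and Snhg8 were under it as a mean of per-cell CPM. Of the called genes not described here, Eps8l2 and Shb rose, with ratios of 1.04 and 1.13, and the others fell, led by Enpep, aminopeptidase A, from 84.6 to 29.5 CPM (-1.52).

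**Figure D3:**
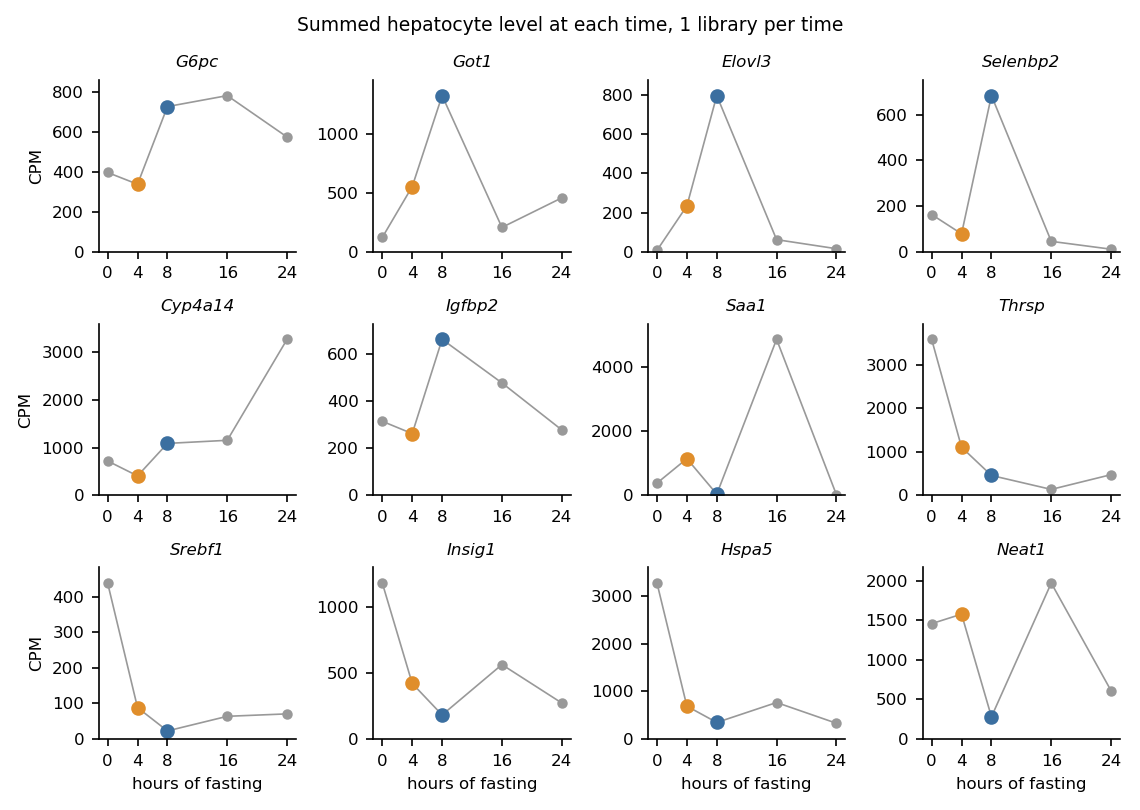
Level of 12 genes in CPM (y axis, from 0) at 0, 4, 8, 16 and 24 h of fasting (x axis), 1 library per time, with 4 h in orange and 8 h in blue. Got1, Elovl3, Selenbp2 and Igfbp2 peak at 8 h, G6pc and Cyp4a14 are higher at 16 h, and Srebf1, Insig1 and Neat1 are lowest at 8 h.

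Across the 5 libraries the called genes were mostly at their extreme at 8 h, which the call itself favours. Of the 31 that rose, 27 had their highest level at 8 h, and of the 62 that fell, 52 had their lowest level at 8 h. The 4 h level was above the fed level for 21 of the 31 and below it for 38 of the 62. The call also selects on the 4 h level, and the same counts over all genes were not made. These counts therefore describe the called genes only and give no course over time. Got1 went from 121 CPM fed to 555, 1331, 207 and 459 CPM. Cyp4a14 had 720 CPM fed and 3267 CPM at 24 h, so its 4 h level was the lowest of the 5, and Hspa5 at 24 h (332 CPM) was near its 8 h level.

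Among the genes with 1000 CPM or more, Mup20, a major urinary protein also called darcin, had 8089 and 15753 CPM (0.96), and Apoa1, the main protein of high-density lipoprotein, had 4093 and 7391 CPM (0.85), neither called. Aldh1l1, a folate enzyme, had 794 and 1360 CPM (0.78), and Cyp3a25, a P450, had 1096 and 596 CPM (-0.88). Of 11 major urinary proteins at the minimum none was called, and reads may be shared among these near-identical genes. Wfdc21 fell from 1980 to 876 CPM (-1.18) and was at 5952 CPM in the left-out barcodes at 4 h. Rps21, of the small ribosomal subunit, fell from 1462 to 726 CPM (-1.01). Of 82 ribosomal protein genes at the minimum only Rps21 was called, and the median was -0.04, with 0.12 for all UMIs in the denominator and -0.31 for cells of 2 to 15% mitochondrial UMIs. Rps21 missed the threshold in 8 of 14 settings. Nuclear-encoded genes of oxidative phosphorylation had a median of 0.03 over 80 genes with 0 called, beside the lower share of all 13 mitochondrially encoded genes. The median of the nuclear-encoded genes was -0.54 with cells of 2 to 15% mitochondrial UMIs. No member was called among 17 genes of the citric acid cycle (median 0.25), 24 of autophagy and lysosomes (0.22), 22 of the proteasome (-0.01, with a range over the settings of -0.64 to 0.43), 36 of coagulation and complement (-0.18, up to 0.03), 17 apolipoprotein and lipoprotein genes (0.00, range -0.24 to 0.16), 13 of ribosome biogenesis and translation (0.18), 10 of peroxisome biogenesis (-0.23, up to 0.02) or 9 of iron handling (0.07, range -0.07 to 0.23).

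Central landmark genes were lower at 8 h. Of 15 such genes 11 were at the minimum, all 11 had a ratio below 0, and the median was -0.88. Of 12 portal landmarks 9 were above 0, with a median of 0.17, but Ctsc fell from 144 to 66.9 CPM (-1.10). The call of Ctsc was lost in 4 settings, with -0.47 in cells of 2 to 15% mitochondrial UMIs. Over all 2797 genes 1515 were below 0 and 1282 above. Cyp2e1, the ethanol-oxidising P450 of central cells, had 2197 and 1130 CPM (-0.96), Cyp2a5 fell from 197 to 61.3 CPM (-1.68), and glutamine synthetase (Glul) had 89.4 and 65.8 CPM (-0.44). Cyp2f2, a P450 of portal cells, had 1522 and 2157 CPM (0.50). Fewer central cells in the library and less of these mRNAs per central cell cannot be told apart in the sums. Among cells thinned to 5000 UMIs, the 90th percentile of Cyp2e1 was 98 UMIs per 10000 at 4 h and 56 at 8 h, with medians of 2 and 0. Thinning left out 1726 shallower cells at 4 h and 502 at 8 h. The central part of the cells, described below, had a median of 3094.5 UMIs at 4 h and 11299 at 8 h. Central cells were thus left out unequally, and these values do not settle the question either. The wider P450 list had 2 of 31 genes that fell, Cyp2a5 and Alas1, 0 that rose, and a median of -0.26 (0.01 with cells of 2 to 15% mitochondrial UMIs). In the conjugation list Ugt2b34, a glucuronosyltransferase, fell from 555 to 252 CPM (-1.14) alone among 25, with a median of -0.30. Its call was lost in 3 settings, with -0.55 in cells of 2 to 15% mitochondrial UMIs.

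To describe the differences along the lobule, the hepatocytes of each library were divided into 3 parts of equal number by landmark genes, portal minus central. The landmarks themselves chose the parts and are not results. The parts were not alike in quality: the central part had a median of 3094.5 UMIs at 4 h and 11299 UMIs at 8 h, and the portal part 19855 and 16322 UMIs. Cyp2f2, a portal gene, was at 258 CPM in the central part at 4 h and 1261 CPM at 8 h, so the central parts are not like sets of cells. Of the 93 called genes 92 had the same sign in all 3 parts, and 67 were past 2-fold in all 3. These genes were called on the sum of the same cells, so the call itself favours a shared sign. The same count over all genes was not made. G6pc had log2 ratios of 1.11, 1.12 and 1.26 in the portal, middle and central parts, and Got1 had 1.27, 1.19 and 1.37. Pck1 had -0.23, -0.09 and 0.29: its portal level went from 4601 to 3918 CPM and its central level from 2826 to 3462 CPM.

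**Figure D4:**
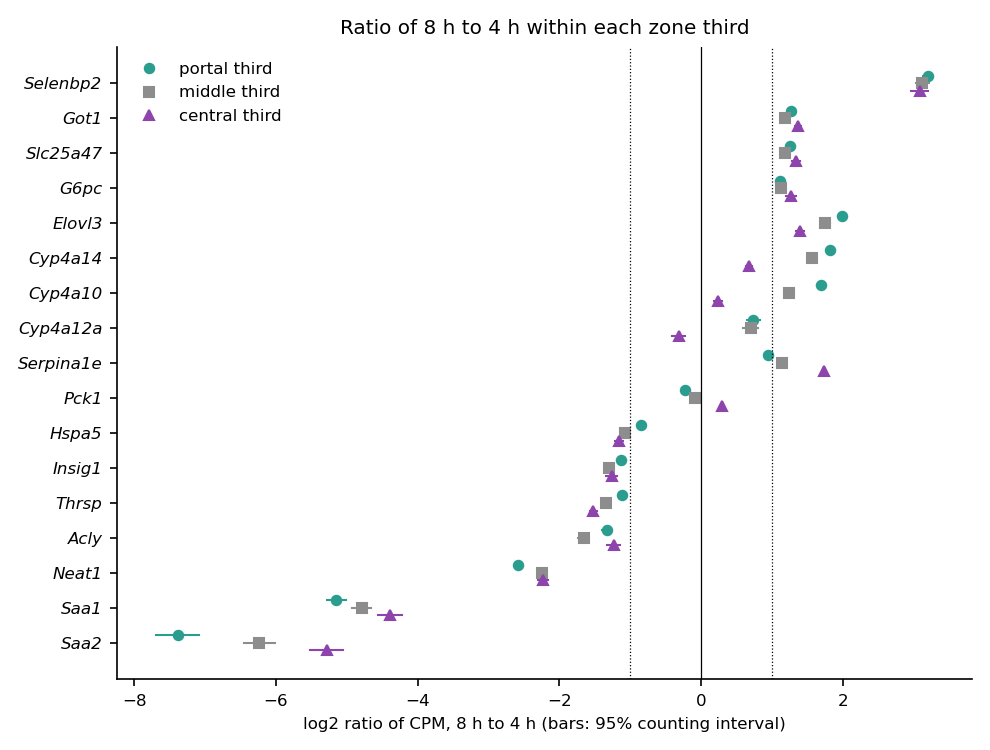
Log2 ratio of 8 h to 4 h (x axis) of 17 genes within the portal, middle and central parts of the hepatocytes of each library, with 95% counting intervals as bars and 2-fold differences as dotted lines. The 3 symbols lie close together for Selenbp2, Got1 and G6pc, and spread for Cyp4a10, Cyp4a14 and Serpina1e.

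The portal to central ratio differed between 8 h and 4 h by 1 or more on the log2 scale for 10 of 2494 genes with 50 CPM or more in either end part of each library (0.401%), 7 towards portal (0.281%) and 3 away from it (0.12%). At 4 h the level of Cyp4a10 was 136 CPM in portal and 493 CPM in central cells, and at 8 h it was 441 and 580 CPM, so its log2 portal to central ratio went from -1.86 to -0.39. Cyp4a14 had 296 and 730 CPM at 4 h and 1045 and 1165 CPM at 8 h (-1.30 and -0.16). Its relatives Cyp4a12a and Cyp4a12b, and Acot1, a cytosolic thioesterase, differed in the same direction by 1.05, 1.35 and 1.10, and by 0.72, 1.28 and 0.06 in cells of 2 to 15% mitochondrial UMIs. The ratio of 8 h to 4 h was 1.70 in the portal and 0.23 in the central part for Cyp4a10, and 1.82 and 0.68 for Cyp4a14. The change was 1.45 and 1.20 for these genes in cells of 3000 UMIs or more, and 0.98 and 0.36 in cells of 2 to 15% mitochondrial UMIs. Going the other way, Cyp7a1 had 9.15 and 478 CPM at 4 h and 1.90 and 255 CPM at 8 h (-5.71 and -7.07). The log2 portal to central ratio of the adhesion gene Cdh1 went from 4.38 to 2.34, a change of -2.04. That change was -1.39 in cells of 3000 UMIs or more and -2.28 in cells of 2 to 15% mitochondrial UMIs. Lars2, the mitochondrial leucyl-tRNA synthetase, changed by 1.01, by 0.20 in cells of 3000 UMIs or more and by 2.21 in cells of 2 to 15% mitochondrial UMIs. The change of Cyp7a1 was -1.36, and -4.35 in cells of 2 to 15% mitochondrial UMIs, while in cells of 3000 UMIs or more it was just under the threshold.

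To give levels per cell, hepatocytes were thinned to 5000 nuclear-encoded UMIs, which kept 2841 at 4 h and 2214 at 8 h and left out 1726 and 502 shallower ones. The median count of Got1 was 6 per 10000 UMIs at 4 h and 12 at 8 h, and that of Elovl3 2 and 8. Selenbp2 had a median of 0 and 6, and Igfbp2 one of 2 and 6. Saa1 had a median of 8 and 0, with a 90th percentile of 24 at 4 h and 2 at 8 h. Malat1 had a median of 30 and 4. Pck1 had medians of 40 and 36, and its 10th to 90th percentiles, 20 to 62 and 22 to 54, overlapped almost fully.

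**Figure D5:**
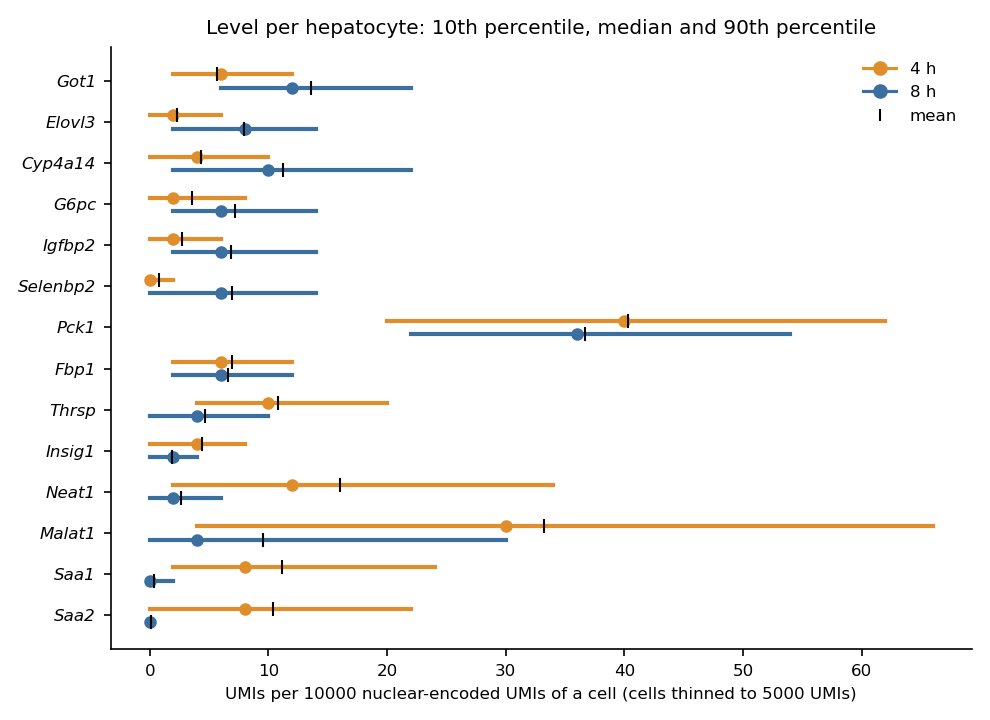
UMIs of 14 genes per 10000 nuclear-encoded UMIs of a hepatocyte (x axis) at 4 h (orange) and 8 h (blue), after thinning each cell to 5000 UMIs. Dots are medians, bars run from the 10th to the 90th percentile and ticks are means: Got1 moves from a median of 6 to 12 and Saa1 from 8 to 0, while Pck1 and Fbp1 overlap.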

How the data were processed

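Isolated hepatocytes of 5 libraries, 1 per time of fasting, were measured, and the 4 h and 8 h libraries were compared. The authors deposited 1 matrix of raw UMI counts with a table that gives each barcode its library. Per the submitters' processing notes, reads were processed with Cell Ranger 6.0.1 on mm10. The sources used here name neither the gene annotation nor the counting options. The barcode table holds library labels and no cell types, so hepatocytes were taken by the limits stated in the report. No doublet caller was run. The total was 68330252 UMIs at 4 h and 42518031 at 8 h, of which 45532684 and 33821768 nuclear-encoded UMIs were in hepatocytes.

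Sums per library were computed with numpy 2.4.6, scipy 1.17.1 and pandas 2.3.3 in python 3.11.15. Log2 ratios have exact conditional binomial intervals, and the steps were checked on simulated counts. Zones are 3 equal parts by 12 portal minus 15 central landmarks. Gene identifiers matched GENCODE M21 for 99.6%. Of the symbols listed, 4 were not found.

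Genes named are Pck1, G6pc, Fbp1 and Pcx, up to 3 highest and 3 lowest members of each list, the 15 highest and 15 lowest of all, the 10 highest and 10 lowest at 1000 CPM or more, and members given as under the minimum. Others, such as Cpt1a, Ppara, Fasn, Xbp1, Mt1 and Saa4, were named for their role after their values were seen. Some genes that the rule names are not reported here. The lists and the comparison were chosen with earlier results of these data known.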

Additional observations from a re-analysis of the deposited data

How the results depend on the processing

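The 93 called genes kept their direction in each of the 14 settings recomputed per gene that gave a value, and 56 stayed past 2-fold in all of them. Settings that only change the scale shift every gene by the same amount and could not turn the sign of a called gene. The counts of genes higher and lower at 8 h, 31 and 62, moved with the settings. They were 54 and 32 with all UMIs in the denominator, 79 and 146 at a minimum of 10 CPM, 687 and 1143 with no minimum, and 153 and 247 at 1.5-fold. With cells of 2 to 15% mitochondrial UMIs they were 63 and 133. The mean of per-cell CPM gave 47 higher, and a minimum of 100 CPM gave 34 lower. The 10 genes with a changed portal to central ratio became 173 with cells of 2 to 15% mitochondrial UMIs and 6 with cells of 3000 UMIs or more. A lower minimum or fold admits more genes by construction, and for the other settings the cause was not tested. Of 38 lists, 16 had a median that changed sign in some setting, among them immediate early, glycogen, elongase and core clock genes, all 4 of which turned with cells of 2 to 15% mitochondrial UMIs. Subtraction of free RNA gave 40 and 74, leaving out the top 5% of cells by UMIs 32 and 60, and leaving out barcodes with over 0.5% of other cell types' markers 32 and 62. Cells of 5000 UMIs or more, chosen after seeing the data, gave 32 and 64. No paired analysis was possible because each time point has 1 library and the labels give no replicate numbers. The minimum of 50 CPM was a choice, and genes below it can have narrow counting intervals.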
